A study of Drosophila melanogaster with 48 samples.

Results

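A group of 10 genes of sugar sensing, carbohydrate digestion and gluconeogenesis was followed in the abdominal fat body of Drosophila melanogaster: Mondo, bigmax, sug, cbt, tobi, Amy-p, Amy-d, Pepck1, Pepck2 and fbp. They were chosen by name, as the rows of the deposited gene tables that match these FlyBase symbols, and make up 10 of 14205 gene rows. All 10 passed the filter on low counts and were among the 10070 genes tested. The flies were mated w1118 females (the iso31 stock) of about 8 days, which had spent 5 days on a restricted diet of 5% sucrose and yeast or on a control diet of 15%, at 25 °C in a cycle of 12 h light and 12 h dark. Both groups share this genotype, and what differed between the diets was the share of sucrose and yeast together, so the effects of the sugar and the protein cannot be told apart. Fat tissue was collected with the oenocytes and epidermis attached, with about 10 flies pooled per library, at 12 times of day spaced 2 h apart and given as zeitgeber time (ZT, the hours since the lights came on), after the other abdominal organs had been cut away. For each diet and time there were 2 libraries, numbered 1 and 2, which makes 24 restricted and 24 control libraries. The libraries that carry the same number are called series 1 and series 2 here, with 12 libraries per diet in each. The labels call the replicates biological and do not say whether a number marks a shared cage, day or sequencing run.

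Mondo and Bigmax are basic helix-loop-helix leucine zipper proteins that bind DNA as a pair and respond to sugar phosphates inside the cell; they are the fly counterparts of mammalian ChREBP or MondoA and Mlx. In the fly fat body the pair is known for switching on, after a sugar meal, a tier of further transcription factors that includes sugarbabe (sug) and cabut (cbt), as well as enzymes of glycolysis and lipid synthesis. Downstream genes in this group are tobi, an alpha-glucosidase known to respond to insulin-like and glucagon-like signals, and the digestive amylases, which are known to be repressed by dietary glucose. Phosphoenolpyruvate carboxykinase (Pepck) and fructose-1,6-bisphosphatase (fbp) catalyse steps specific to gluconeogenesis, and cabut is known to repress Pepck transcription.

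The libraries held between 5815484 and 33485917 estimated counts. Fat body markers were present in every library, with a summed level of 1760 to 4052 TPM (a level scaled for transcript length and library total) in restricted and 1960 to 4544 TPM in control libraries for 9 genes. Their median sum was 3101 TPM on the restricted and 2535 TPM on the control diet in series 1. In series 2 it was 2412 TPM on the restricted and 3667 TPM on the control diet. Their median diet effect (log2 scale, restricted over control) was 0.35 in series 1 and -0.04 in series 2. Markers of tissues that the dissection should remove varied widely. For 21 ovary markers the summed level ranged from 6.57 to 7312 TPM in restricted and from 218 to 15332 TPM in control libraries, and 11 of the 21 were lower on the restricted diet by the test described below. The median summed level of ovary markers in series 2 was 54.5 TPM on the restricted and 1604 TPM on the control diet, and in series 1 it was 1320 TPM on the restricted and 2348 TPM on the control diet. For 30 gut markers the sum ranged from 3.88 to 15151 TPM in restricted and from 3.31 to 17435 TPM in control libraries, and 1 of 25 tested was lower on the restricted diet. Markers of other cells of the abdomen were in part higher on the restricted diet, with 0 lower in each list. For muscle 5 of 10 rose (median effect 0.32 on the log2 scale, restricted over control) and for hemocytes 3 of 5 (0.34). For oenocytes 3 of 4 rose (0.31), among them Desat1, which is also in a pathway list below. For epidermis 2 of 5 rose (0.35) and for neurons 2 of 5 (0.44). These counts stand beside 10.4% of all 10070 genes called as rising under restriction by the same test, and 15.4% called as falling. Mitochondrial transcripts made up 1.24% to 7.72% of counts in restricted and 4.41% to 7.05% in control libraries of series 1, against 2.32% to 2.85% in restricted and 2.09% to 2.55% in control libraries of series 2. Among the restricted series 1 libraries, that at ZT 2 had 53.8% ribosomal RNA, which lowers the TPM of its other genes, against a median of 0.681% over all 48. In bulk tissue, fewer cells of a type and less RNA per cell cannot be told apart.

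The 10 transcripts spanned more than 2 orders of magnitude. Over all 48 libraries the median level per length was 714 TPM for fbp, 555 TPM for Pepck1 and 283 TPM for tobi. The place of Pepck1 below fbp is uncertain, since its row is identical to that of an overlapping gene and both rows together had a median of 1111 TPM. It was 117 TPM for sug, 55.1 TPM for cbt, 50.5 TPM for Mondo and 48.0 TPM for bigmax. The sensor pair had similar medians over all libraries, but not in each series: on the restricted diet Mondo averaged 62.2 ± 11.9 TPM and bigmax 42.5 ± 10.9 TPM in series 1, against 37.3 ± 8.11 TPM for Mondo and 63.2 ± 10.1 TPM for bigmax in series 2 (SD, n = 12 each). On the control diet Mondo averaged 58.1 ± 8.49 TPM and bigmax 43.1 ± 6.95 TPM in series 1, and Mondo 47.1 ± 4.72 TPM and bigmax 49.97 ± 5.30 TPM in series 2 (n = 12 each). Amy-d at 10.7 TPM, Pepck2 at 4.31 TPM and Amy-p at 1.67 TPM were the lowest. Neighbours in this order overlapped in every case, and the ranges of cbt (38.3 to 82.6 TPM), Mondo (20.1 to 80.7 TPM) and bigmax (24.8 to 81.1 TPM) nearly coincided. Pepck2, with a highest value of 11.7 TPM, stayed below the lowest library of each of the 7 most abundant genes of the group. The spread between libraries was of another order for the amylases. On the scale of CPM (counts scaled to a common library size, not per length), the highest library exceeded the lowest 2.59-fold for Mondo, 2.93-fold for cbt and 3.88-fold for fbp. The same ratio was 23.7-fold for tobi, 464-fold for Amy-d and 5015-fold for Amy-p.

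**Figure D1:**
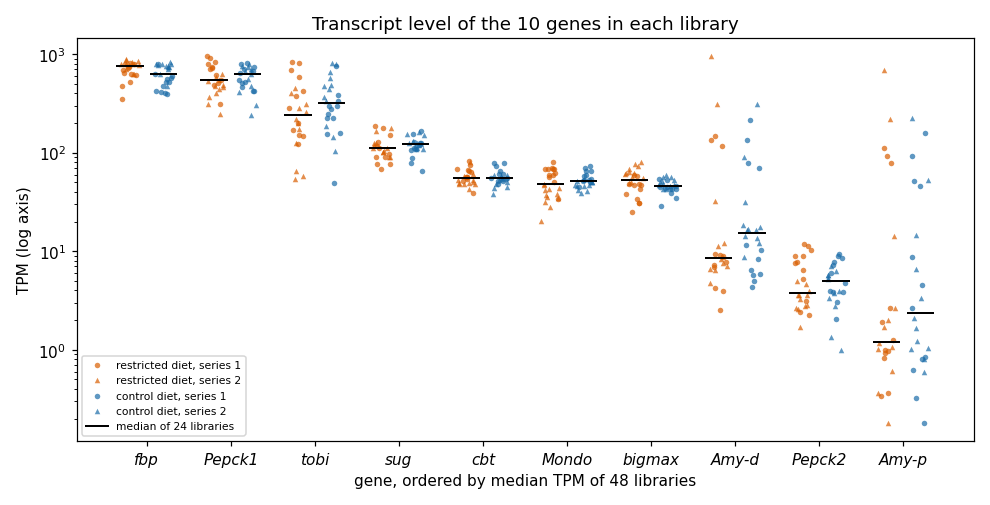
Level of each gene in TPM (log axis) in every library, with restricted libraries left of control libraries, series 1 as circles and series 2 as triangles, and a black line at the median of the 24 libraries of a diet. The rows of fbp and Pepck1 had the highest medians over all libraries, 714 and 555 TPM (1111 TPM for Pepck1 with the identical row of CG45087), and single libraries raise the amylases up to 947 TPM for Amy-d.

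The first question was whether the diet changed these transcripts over the day as a whole. None of the 10 genes passed the diet test (edgeR's quasi-likelihood test with time as a factor, p-values adjusted by Benjamini-Hochberg over every gene in the fit, threshold 0.05), whereas 25.8% of the 10070 genes did. At an unadjusted p under 0.05 there were 2 of the 10, bigmax and fbp, against 39.5% of all genes, and DESeq2 and limma called 0 of the 10 as well. Other alternatives did call some of the 10, among them bigmax and fbp with a term for the replicate number (last section). The median diet effect of the 10 was 0.02 on the log2 scale (restricted over control), against 0.01 for all genes tested. Of the 10 values, 6 were above 0. The absence of a call does not show that the levels were equal: the standard errors ran from 0.07 for Mondo to 0.96 for Amy-p.

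**Figure D2:**
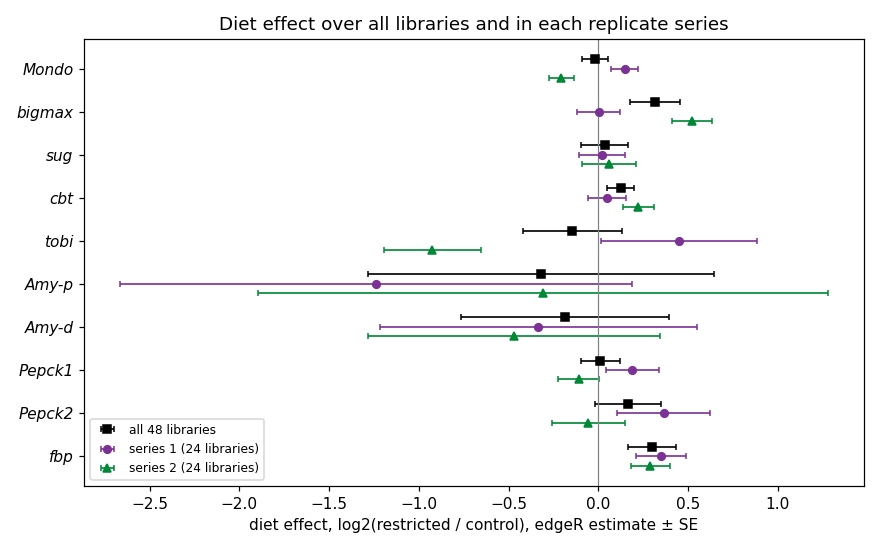
Diet effect of each gene as log2 of restricted over control, with its standard error, estimated from all 48 libraries (black squares), from series 1 (purple circles) and from series 2 (green triangles). Mondo and tobi have values on opposite sides of 0 in the 2 series, bigmax departs from 0 in series 2 (0.52) and not in series 1 (0.00), and fbp lies between 0.29 and 0.35 in all 3 estimates.

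Mondo, the sugar-responsive partner of the pair, had 90.2 CPM in the lowest, 179 in the median and 234 in the highest of 24 restricted libraries. In the 24 control libraries it had 122 CPM in the lowest, 178 in the median and 225 in the highest. The groups overlapped almost completely, and the diet effect was -0.02 ± 0.07 (SE; adjusted p = 0.869). The 2 series did not give the same picture. In series 1 Mondo averaged 201 ± 21.8 CPM on the restricted and 183 ± 28.3 CPM on the control diet (SD, n = 12 each), a log2 effect of 0.15 ± 0.08 that did not pass (adjusted p = 0.323). In series 2 it averaged 153 ± 29.4 CPM on the restricted and 176 ± 25.1 CPM on the control diet (n = 12 each), and was lower on the restricted diet by the test within that series (-0.21 ± 0.07, adjusted p = 0.0309). Mondo was lower in series 2 than in series 1 at all 12 times on the restricted diet, and at 8 of 12 on the control diet.

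Bigmax, its partner, had 19.3 CPM in the lowest, 37.4 in the median and 81.3 in the highest restricted library. It had 16.2 CPM in the lowest, 32.6 in the median and 47.5 in the highest control library. It was higher on the restricted diet at 10 of 12 times, and its effect of 0.32 ± 0.14 missed the threshold (adjusted p = 0.0898). In series 1 the diets gave the same mean, 27.9 ± 5.52 CPM on the restricted and 28.1 ± 6.49 CPM on the control diet (SD, n = 12 each). In series 2 bigmax averaged 53.4 ± 12.7 CPM on the restricted and 36.9 ± 5.98 CPM on the control diet (n = 12 each), higher at 11 of 12 times, and it was higher by the test within that series (0.52 ± 0.11, adjusted p = 0.00364). There, 8 of 12 restricted libraries lay above every control library. Bigmax was higher in series 2 than in series 1 at 12 of 12 times on the restricted and 11 of 12 on the control diet. Leaving out the restricted series 1 library at ZT 20 from the fit over both series brought bigmax under the threshold (0.38, adjusted p = 0.0392).

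The difference in diet effect between the series was itself tested, as the interaction of diet and replicate number. It passed for 3 of the 10 genes, while 9.46% of all genes tested passed. For Mondo the effect in series 2 minus that in series 1 was -0.35 ± 0.11 (adjusted p = 0.0391), for bigmax 0.53 ± 0.16 (adjusted p = 0.0323) and for tobi -1.62 ± 0.51 (adjusted p = 0.0371). The signs thus ran opposite ways for the 2 partners of the sensor pair. The median size of this difference, regardless of sign, was 0.418 for the 10 genes and 0.238 for all genes tested. These calls were near the threshold: of 48 fits that each left out 1 library, 26 lost the call for Mondo, 22 that for tobi and 7 that for bigmax (restricted series 2 at ZT 2, 4 or 14, control series 2 at ZT 2 or 18, and control series 1 at ZT 8 or 20). The series also differed in ovary markers and in the mitochondrial share given above (a mean of 4.15% on the restricted and 5.67% on the control diet in series 1, against 2.56% on the restricted and 2.30% on the control diet in series 2), whose part in these calls was not tested beyond the fits with marker scores and without mitochondrial rows. The same test passed for 6 of 21 ovary, 2 of 25 gut, 2 of 9 fat body, 2 of 5 Malpighian tubule and 1 of 4 oenocyte markers. It passed for 0 of the muscle, hemocyte, neuron and epidermis markers. The median diet effect in series 1 and series 2 was -0.70 and -3.17 for ovary markers and -1.42 and 1.16 for gut markers. For Malpighian tubule markers it was 0.32 and -1.21. The part of these tissues in the calls was not tested beyond the fits with ovary and gut marker scores. Whether the series differ in handling is not given in the sources used here.

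Sugarbabe, a zinc finger factor of the Gli-similar family that the Mondo and Bigmax pair is known to induce, had 65.6 CPM in the lowest, 127 in the median and 254 in the highest restricted library. It had 46.5 CPM in the lowest, 131 in the median and 211 in the highest control library. Cabut, a zinc finger factor related to mammalian Klf10 and Klf11, had 85.7 CPM in the lowest, 106 in the median and 168 in the highest restricted library. It had 57.3 CPM in the lowest, 101 in the median and 142 in the highest control library. The diets overlapped for both factors. The effects were 0.04 ± 0.13 for sug (adjusted p = 0.858) and 0.12 ± 0.07 for cbt (adjusted p = 0.214), and neither passed within a series; cbt came nearest in series 2 (0.22 ± 0.09, adjusted p = 0.0530). In the reference annotation cbt overlaps ush on the opposite strand, and sug overlaps CG13319 on the same strand. Leaving transposable elements aside, Mondo overlaps Gr39a and bigmax overlaps CG3368, both on the opposite strand. The sources used here do not state whether strand was kept, and without it reads of such partners cannot be told apart.

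Because ovary markers differed between the diets, each gene's level was set against the ovary marker score of the library (the mean log2 CPM of the listed markers). Of 16 relations, 8 genes each against the ovary and the gut score, 4 had an adjusted permutation p under 0.05, all with the ovary score and all negative. The permutations shuffled all 48 libraries without regard to diet or series. Their p-values therefore do not separate a relation within a group of libraries from a difference between groups. For bigmax Pearson r was -0.76 and Spearman rho -0.72 over 48 libraries (permutation p = 1e-05 for both, the floor set by 100000 permutations; adjusted p = 8e-05 and 0.00016), and r was -0.71 without the 2 libraries farthest from the median score. For cbt r was -0.63 and rho -0.61 (permutation p = 3e-05 and 2e-05; adjusted p = 0.00016 for each), with r = -0.56 without those 2 libraries. For fbp r was -0.60 and rho -0.60 (permutation p = 1e-05 and 4e-05; adjusted p = 8e-05 and 0.000213), with r = -0.61 without them. For sug r was -0.56 and rho -0.50 (permutation p = 6e-05 and 0.00036; adjusted p = 0.00024 and 0.00144), with r = -0.53 without them.

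Within the 12 libraries of each diet and series, r lay farther from 0 on the control diet for these genes, a difference that was not tested. For cbt r was -0.55 in restricted series 1 and -0.55 in restricted series 2, against -0.79 in control series 1 and -0.80 in control series 2. For bigmax r was -0.20 in restricted series 1 and -0.60 in restricted series 2, against -0.71 in control series 1 and -0.86 in control series 2. For sug r was -0.42 and -0.31 in restricted series 1 and 2, against -0.57 and -0.86 in control series 1 and 2. For fbp the relation did not keep its sign within groups: r was -0.30 and 0.14 in restricted series 1 and 2, against -0.49 and -0.33 in control series 1 and 2. With both marker scores as covariates the diet effect was -0.08 for bigmax (adjusted p = 0.728), 0.03 for fbp (adjusted p = 0.898), -0.01 for cbt and -0.22 for sug. In that fit the effect between the series no longer passed for bigmax (0.30, adjusted p = 0.298) or tobi (-1.40, adjusted p = 0.142), and still passed for Mondo (-0.45, adjusted p = 0.0235). The part of the ovary tissue in these values was not tested beyond this fit.

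**Figure D3:**
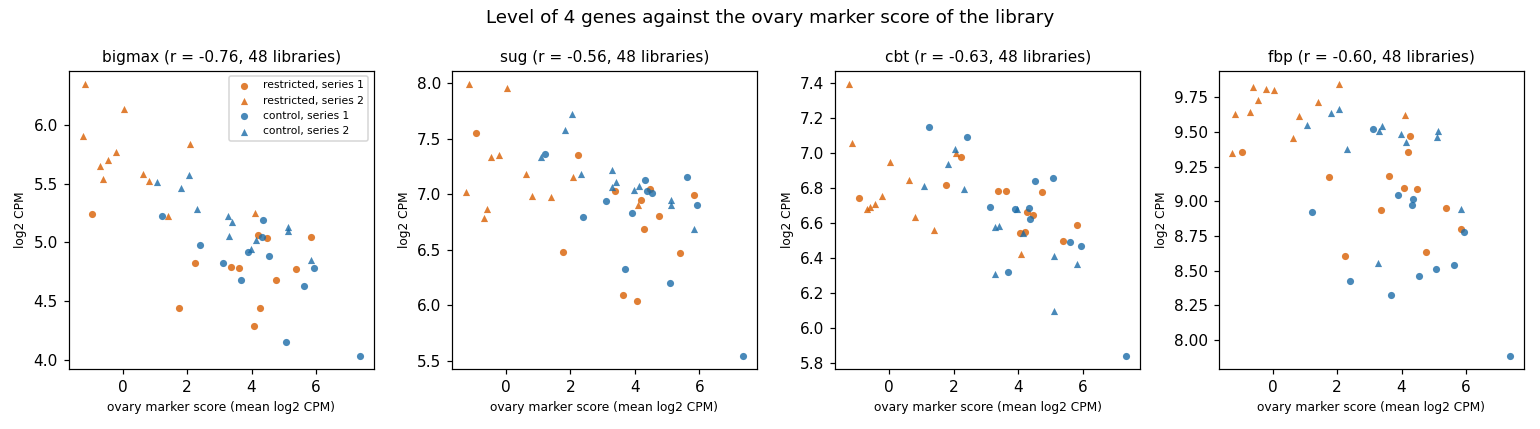
Level of bigmax, sug, cbt and fbp (log2 CPM) against the ovary marker score (mean log2 CPM of the listed markers) in 48 libraries, restricted in orange and control in blue, series 1 as circles and series 2 as triangles. All 4 genes are lower where the score is higher, with r between -0.76 and -0.56, and the restricted series 2 libraries hold most of the lowest scores and the highest bigmax levels.

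The alpha-glucosidase gene tobi (target of brain insulin) varied more than any other gene of the group apart from the amylases. It had 111 CPM in the lowest, 488 in the median and 1279 in the highest restricted library, against 70.1 CPM in the lowest, 502 in the median and 1660 in the highest control library. The diet effect over both series was -0.14 ± 0.28 (adjusted p = 0.718). In series 1 tobi averaged 655 ± 412 CPM on the restricted and 458 ± 264 CPM on the control diet (SD, n = 12 each), higher on the restricted diet at 8 of 12 times (0.45 ± 0.43, adjusted p = 0.571). In series 2 it averaged 452 ± 268 CPM on the restricted and 838 ± 460 CPM on the control diet (n = 12 each) and was higher on the restricted diet at 1 of 12 times. It was lower on the restricted diet by the test within series 2 (-0.93 ± 0.27, adjusted p = 0.0159). Ranges of the diets overlapped in both series. In the reference annotation tobi overlaps rha on the opposite strand.

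The amylases Amy-p and Amy-d, enzymes of starch digestion secreted by the midgut, had low levels in most libraries and very high ones in a few. Amy-p had 0.316 CPM in the lowest, 1.74 in the median and 1044 in the highest restricted library, against 0.208 CPM in the lowest, 3.50 in the median and 352 in the highest control library. Amy-d had 2.99 CPM in the lowest, 11.5 in the median and 1388 in the highest restricted library, against 5.11 CPM in the lowest, 21.0 in the median and 470 in the highest control library. The diet effects were -0.32 ± 0.96 for Amy-p (adjusted p = 0.826) and -0.19 ± 0.58 for Amy-d (adjusted p = 0.831). Leaving out 1 library could change the sign: without the control series 2 library at ZT 16 the effects were 0.22 for Amy-p and 0.14 for Amy-d. Without the restricted series 2 library at ZT 10 they were -1.02 for Amy-p and -0.61 for Amy-d. Mean levels were higher on the restricted diet, at 74.2 against 38.6 CPM for Amy-p and 106 against 61.5 CPM for Amy-d, while the medians were lower. These restricted means include the series 2 library at ZT 10, with 1044 CPM of Amy-p and 1388 CPM of Amy-d.

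Amylase was high in the libraries with the most gut transcripts. Summed over both genes, 11 of 48 libraries lay between 115 and 1638 TPM and the other 37 between 2.87 and 46.7 TPM; the limit of 100 TPM in this gap was chosen after the values were seen. These 11 libraries were also the 11 with the highest summed gut markers, at 2844 to 17435 TPM, while the other 37 had 3.31 to 1966 TPM of gut markers. Gut markers also occurred without high amylase. Restricted series 1 at ZT 6, 10 and 14 had 1140, 1272 and 1004 TPM of gut markers and 4.74, 9.76 and 12.0 TPM of amylase. Control series 1 at ZT 24 had 1966 TPM of gut markers and 20.3 TPM of amylase. The 11 libraries high in amylase comprised 5 restricted and 6 control libraries, from both series, and all had been collected between ZT 6 and ZT 18. The 2 genes are near-identical neighbours, separated by Spn53F among coding genes, so that the division of reads between them is uncertain. The division shifted with the level all the same: Amy-p made up 38.0% to 43.8% of the estimated counts of the pair in the 11 libraries, and a median of 12.4% (2.89% to 43.9%) in the other 37. No correlation of amylase over all libraries was tested. Those given below for Amy-p and Amy-d are a description only.

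**Figure D4:**
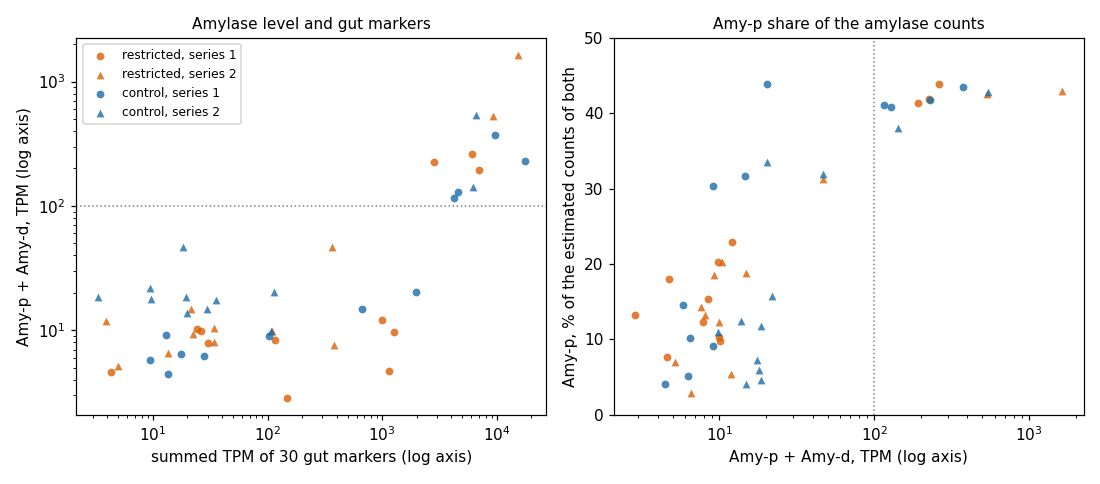
Left, summed TPM of Amy-p and Amy-d against the summed TPM of 30 gut markers, both on log axes; right, share of Amy-p in the estimated counts of both genes against their summed TPM (log axis). Restricted libraries are orange and control libraries blue, series 1 circles and series 2 triangles, and the dotted line marks 100 TPM. The 11 libraries past the line are the 11 richest in gut markers, and their Amy-p share lies between 38.0% and 43.8%.

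Pepck1 and Pepck2 encode phosphoenolpyruvate carboxykinases, which make phosphoenolpyruvate from oxaloacetate. The Pepck1 row cannot be separated from that of CG45087: the reference annotation places this gene over Pepck1 on the same strand, and both rows held the same estimated counts and the same TPM in 48 of 48 libraries. The values given for Pepck1 are those of its own row; whether the reads were split or repeated between the 2 rows is not given in the sources used here, and if they were split the level of Pepck1 per length is understated. Pepck1 had 741 CPM in the lowest, 1195 in the median and 1957 in the highest restricted library, against 459 CPM in the lowest, 1257 in the median and 1787 in the highest control library. Its mean was 1241 ± 291 CPM on the restricted and 1247 ± 386 CPM on the control diet (SD, n = 24 each), a log2 effect of 0.01 ± 0.11 (adjusted p = 0.947). Pepck2, its neighbour in the genome, had 5.37 CPM in the lowest, 10.0 in the median and 28.8 in the highest restricted library, against 2.39 CPM in the lowest, 10.9 in the median and 23.3 in the highest control library, an effect of 0.17 ± 0.18 (adjusted p = 0.516). Both diets overlapped throughout for both genes. Per length, the Pepck1 row alone exceeded Pepck2 by a median of 126-fold (68.0-fold to 216-fold in restricted and 77.5-fold to 241-fold in control libraries).

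The 2 carboxykinase genes varied together: over 48 libraries the gene whose log2 CPM was most like Pepck2 was Pepck1 (Pearson r = 0.85, as a description), and after CG45087 the gene most like Pepck1 was Pepck2. Both had their lowest control mean at ZT 14. At that time Pepck1 averaged 863 CPM on the restricted and 707 CPM on the control diet, and at ZT 18 it averaged 1414 CPM on the restricted and 1717 CPM on the control diet (2 libraries each). Pepck2 averaged 12.3 CPM on the restricted and 15.5 CPM on the control diet at ZT 18, against 7.34 CPM on the restricted and 3.43 CPM on the control diet at ZT 14. A change with time was not called for either gene by the tests below, which include one with time as a factor.

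Fructose-1,6-bisphosphatase (fbp) had the highest median per length among the 10 rows, and its diet effect was above 0 in both series. It had 390 CPM in the lowest, 679 in the median and 918 in the highest restricted library, against 237 CPM in the lowest, 523 in the median and 811 in the highest control library. It was higher on the restricted diet at 10 of 12 times, and its effect of 0.30 ± 0.13 missed the threshold (adjusted p = 0.0886); the median effects of the muscle, hemocyte and oenocyte markers were of similar size, and their part in it was not tested. In series 1 fbp averaged 541 ± 103 CPM on the restricted and 433 ± 131 CPM on the control diet (SD, n = 12 each; 0.35 ± 0.14, adjusted p = 0.258). In series 2 it averaged 818 ± 82.9 CPM on the restricted and 683 ± 126 CPM on the control diet (n = 12 each; 0.29 ± 0.11, adjusted p = 0.0438), and 6 of 12 restricted libraries lay above every control library. The level was higher in series 2 than in series 1 at 11 of 12 times on each diet. The effect between the series did not pass (-0.05 ± 0.17, adjusted p = 0.883).

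Time of day was tested within each diet by fitting cosine and sine terms with a period of 24 h. None of the 10 genes was called rhythmic on the restricted diet, where 1.15% of all genes tested were called, and none on the control diet, where 1.34% were. The tests had an unadjusted p under 0.05 for 2 of the 10 genes on the restricted diet, Amy-p and Amy-d, and for 0 on the control diet, and limma called 0 on each. The difference in rhythm between the diets passed for 0 of the 10 (0 at an unadjusted p under 0.05 and 0 with limma), against 0.0199% of all genes. Leaving the amylases aside, the fitted amplitudes (mean to peak, log2 scale, least squares) ranged from 0.03 ± 0.08 for Mondo to 0.29 ± 0.22 for Pepck2 on the restricted diet. On the control diet they ranged from 0.08 ± 0.08 for Mondo to 0.70 ± 0.29 for tobi (adjusted p = 0.562). Cbt, known in flies to link sugar sensing with the output of the circadian clock, had an amplitude of 0.10 ± 0.07 on the restricted (adjusted p = 0.916) and 0.17 ± 0.07 on the control diet (adjusted p = 0.512).

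The amylases had the largest amplitudes, 1.87 ± 0.83 on the restricted and 1.61 ± 0.83 on the control diet for Amy-p. Those of Amy-d were 1.24 ± 0.55 on the restricted and 1.05 ± 0.55 on the control diet, and the adjusted p for the restricted diet was 0.125 for Amy-p and 0.0884 for Amy-d. The fitted peaks were at ZT 14.1 on the restricted diet for both genes, and at ZT 13.2 for Amy-p and ZT 13.1 for Amy-d on the control diet. The 11 libraries richest in gut markers had all been collected between ZT 6 and ZT 18, and their part in the amplitudes was not tested by leaving them out together. On the scale of the edgeR fit, the restricted amplitude of Amy-p was 3.86, and it was 1.14 (adjusted p = 0.495) with both marker scores as covariates. That of Amy-d was 2.63, and 0.83 (adjusted p = 0.562) with the covariates. Without the restricted series 2 library at ZT 10 these amplitudes were 2.41 for Amy-p and 1.63 for Amy-d. Of 48 fits that each left out 1 library, 2 called Amy-d, those without the restricted series 2 library at ZT 12 or at ZT 18, the library at ZT 18 being 1 of the 11 rich in gut markers (lowest adjusted p over the 48 fits 0.0436).

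**Figure D5:**
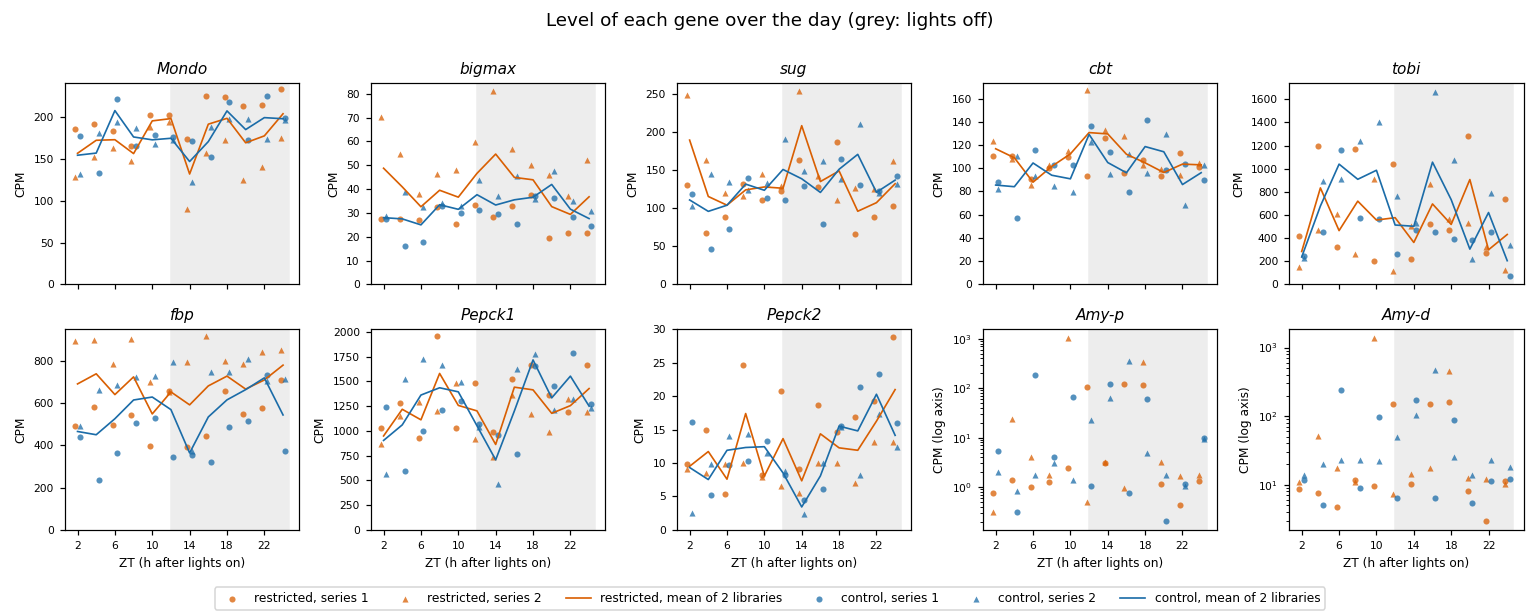
CPM of each gene over the day, with grey for lights off; restricted libraries are orange and control libraries blue, series 1 circles and series 2 triangles, and lines join the means of the 2 libraries of a diet and time (no lines for the amylases, which are on log axes). No gene follows a daily curve that passed the rhythm test, bigmax and fbp lie higher in series 2 on both diets, and the amylases are above 60 CPM only in libraries collected between ZT 6 and ZT 18.

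The genes most like each member, by Pearson r of log2 CPM over 48 libraries among 6289 named genes of at least 10 CPM, are given as a description, since the libraries share depth and tissue makeup. For bigmax they were CG2017 (r = 0.92), NimB3 (0.92) and Cisd2 (0.92), and for fbp CG32191 (0.95), Nepl11 (0.93) and yip2 (0.93). For Amy-p they were Amy-d (0.95), the digestive protease gene Jon99Ci (0.90) and Diedel3 (0.88), and for Amy-d, after Amy-p, the maltase genes Mal-A8 (0.84) and Mal-A6 (0.84). For Mondo they were hyd (0.81), smash (0.80) and mon2 (0.78), for sug Root (0.84), CG13607 (0.83) and Odc1 (0.82), and for cbt atl (0.83), Pino (0.81) and CG9044 (0.81). For tobi they were Argl (0.82), the cytochrome P450 gene Cyp12d1-p (0.80) and CG7966 (0.80). After the carboxykinase row partners, Pepck1 was most like CG10512 (0.82) and Pepck2 most like CG8654 (0.78). None of the 3 genes most like either sensor was a member of the group, which makes up 10 of the 6289 genes. That share is too small for the absence to tell anything about the pair.

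Genes around these 10 in the pathway were drawn up as 5 lists of 56 genes, of which 55 were found and 53 tested; the lists were chosen with earlier results of these data known. Of the 53, edgeR called 0 rhythmic on either diet. At an unadjusted p under 0.05 there were 11 on the restricted and 16 on the control diet, against 8.91% and 11% of all genes. For the difference in rhythm 0 were called. There, 4 of the 53 had an unadjusted p under 0.05, all of them among the carbohydrases below, against 3.03% of all genes. Shares called by the diet test are read beside the 25.8% of all genes. Of 15 tested genes of gluconeogenesis and the glycolytic steps it shares, 1 rose on the restricted diet and 0 fell (median effect 0.15). It was Got2, a mitochondrial aspartate aminotransferase, at 643 CPM on the restricted and 490 CPM on the control diet (0.41 ± 0.16, adjusted p = 0.0477), a call lost in 29 of 48 fits that left out 1 library. Of 11 listed carbohydrases, the 10 maltase genes were tested and the amylase-related Amyrel did not pass the filter on low counts. Of the 10, 0 were called (0 at an unadjusted p under 0.05); at their median effect of 0.45 the series pointed opposite ways, with -0.31 in series 1 and 0.72 in series 2. The medians of the gut markers did so too, at -1.42 in series 1 and 1.16 in series 2, and the part of gut tissue in the carbohydrase values was not tested.

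Of 10 lipogenic and NADPH-producing enzymes, a class that Mondo and Bigmax are known to induce, 2 rose on the restricted diet and 0 fell (median effect 0.14). Desat1, the stearoyl-CoA desaturase, had 6649 CPM on the restricted and 5447 CPM on the control diet (0.29 ± 0.09, adjusted p = 0.0238). Idh, the NADP-dependent isocitrate dehydrogenase, had 1454 CPM on the restricted and 1234 CPM on the control diet (0.24 ± 0.08, adjusted p = 0.0254). The median effect of the list was 0.25 in series 1 and 0.00 in series 2. Men, the cytosolic malic enzyme, was called for the difference between the series (-0.76 ± 0.19, adjusted p = 0.00887), with effects of 0.36 in series 1 and -0.40 in series 2. FASN1, ACC, ATPCL and AcCoAS also had values above 0 in series 1 and below 0 in series 2, without passing that test (adjusted p = 0.0677 to 0.186). These 5 enzymes are named after their values were seen. Of 12 tested hormonal and nutrient signals, 2 rose and 0 fell (median 0.00). They were Hnf4, a lipid-sensing nuclear receptor, at 201 CPM on the restricted and 167 CPM on the control diet (0.27 ± 0.06, adjusted p = 0.00437), and AkhR, the receptor of the glucagon-like adipokinetic hormone, at 236 CPM on the restricted and 197 CPM on the control diet (0.27 ± 0.09, adjusted p = 0.0353). The call for AkhR was lost in 10 of 48 fits that left out 1 library.

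Of 6 related factors of the Myc and Max network and the Kruppel-like family, 1 rose and 1 fell. Max, the common partner of Myc and Mnt, had 26.2 CPM on the restricted and 23.1 CPM on the control diet (0.19 ± 0.06, adjusted p = 0.0242). Mnt, which represses with Max, had 10.4 CPM on the restricted and 15.2 CPM on the control diet (-0.54 ± 0.18, adjusted p = 0.0284), a call lost without control series 1 at ZT 4 or control series 2 at ZT 2, 14 or 18. As with bigmax and Mondo, the effects of both differed between the series: for Max the effect in series 2 minus that in series 1 was 0.42 ± 0.10 (adjusted p = 0.00592), and for Mnt it was -1.04 ± 0.33 (adjusted p = 0.0390). With both marker scores as covariates the calls for Got2 (0.19), Desat1 (0.11), Idh (0.08), Hnf4 (0.15), AkhR (0.06), Max (0.07) and Mnt (-0.29) were all lost, in a fit that called 42 of 10070 genes in all. With limma on log2(TPM + 1) 5 of the 7 were lost, Got2 (adjusted p = 0.0883), Desat1 (0.118), Idh (0.0537), AkhR (0.120) and Max (0.631), while Hnf4 and Mnt still passed. Got2 was also lost without the filter on low counts (adjusted p = 0.0664) and without a time term (0.0670). The rises of 0.19 to 0.41 stand beside median effects of 0.31 to 0.44 for the markers of muscle, hemocytes, oenocytes, epidermis and neurons, whose part in them was not tested. Desat1 is itself 1 of the 4 tested oenocyte markers and enters their median, and AkhR is 1 of the 9 fat body markers. In series 1 alone these 7 were not called either, when that fit called 2 genes in all.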

How the data were processed

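For 48 libraries the authors deposited gene-level estimated counts and gene-level TPM. Per the submitters' processing notes, kallisto 0.44.0, which assigns reads to transcripts, and FastQC were used. Which annotation and build they used, and how transcripts were summed to genes, is not given in the sources used here; coordinates are left out, and gene neighbours come from the BDGP6 annotation. Deposited estimated counts, 88.2% of them within 0.01 of a whole number, were rounded. Symbols were found for 14051 of 14205 rows. The 10 genes, the lists and the tests were chosen with earlier results of these data known. The text names all 10 genes, up to 4 called members per list and test, and the 3 genes most like each.

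Genes were kept with filterByExpr (minimum count 10 over the groups of diet and time), scaled with TMM and fitted in R 4.3.3 with edgeR 4.0.16, using its quasi-likelihood F test (Benjamini-Hochberg over all 10070 genes, threshold 0.05). Levels in CPM are after TMM. Amplitudes with a standard error are least-squares fits to log2 CPM (prior count 2). Marker scores entered 1 alternative fit as covariates. Other alternatives used the Wald test or the size factors of DESeq2 1.42.0, limma 3.58.1 on log2(TPM + 1), no filter, a replicate block, each series alone, ribosomal RNA and mitochondrial rows left out, no time term, time as a factor, and each library left out in turn. The fits were checked on simulated counts. The limit of 100 TPM for the amylases was set after the values were seen. Total counts of 5815484 to 33485917 set the precision of low genes such as Amy-p.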

Additional observations from a re-analysis of the deposited data

Results flagged for a closer look

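The diet effect differed between the 2 replicate series for 3 of the 10 genes by the interaction test in edgeR (effect in series 2 minus effect in series 1, log2 scale). For Mondo the difference was -0.35 (0.15 in series 1 and -0.21 in series 2), for bigmax 0.53 (0.00 and 0.52) and for tobi -1.62 (0.45 and -0.93). In series 2 the restricted diet was lower at 10 of 12 times for Mondo, higher at 11 of 12 for bigmax and lower at 11 of 12 for tobi. The median summed ovary markers in series 2 were 54.5 TPM on the restricted and 1604 TPM on the control diet. With marker scores as covariates the difference still passed for Mondo and not for bigmax or tobi. Of 48 fits that each left out 1 library, 26 lost the call for Mondo, 22 that for tobi and 7 that for bigmax.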

How the results depend on the processing

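Under the alternatives, 0 of the 10 genes passed the diet test except with the replicate block (2, bigmax 0.26 with adjusted p = 0.0227 and fbp 0.31 with adjusted p = 0.00542), in series 2 alone (4: Mondo, bigmax, tobi and fbp) and without 1 library (0 to 1). The labels do not say whether the numbers pair the samples. Deviations of same-numbered libraries correlated above 0.1 at 8 of 12 times (-0.16 to 0.46). The main fit has no term for the replicate number. Of all genes, 2601 passed, against 2 in series 1, 4310 in series 2, 3824 with the replicate block and 42 with marker scores as covariates. Diet effects that changed sign, none of them called in either fit, were, with covariates, Mondo (0.0492), bigmax (-0.0798), sug (-0.22), cbt (-0.0105) and tobi (0.0628); with limma on TPM, which moved the median of all genes from 0.01 to -0.09, sug (-0.0796) and Pepck1 (-0.0785); in series 1 Mondo (0.15) and tobi (0.45), and in series 2 Pepck1 (-0.11) and Pepck2 (-0.0554); without a time term Amy-p (0.95), Amy-d (0.79) and Pepck1 (-0.00694); without the filter Pepck1 (-0.00192). Max (-0.0340) and Mnt (0.0248), called over both series, changed sign in series 1. Leaving out 1 library gave -0.0363 to 0.0112 for Mondo, -0.0155 to 0.0991 for sug, -1.02 to 0.22 for Amy-p, -0.61 to 0.14 for Amy-d and -0.0161 to 0.0562 for Pepck1. Rhythmic members stayed at 0 on both diets, except Amy-d without 1 library on the restricted diet (0 to 1). All rhythmic genes numbered 116 on the restricted diet (178 without the filter, 63 with limma, 45 with time as a factor), 135 on the control diet (42 with limma, 58 with covariates, 25 with time as a factor, 78 to 186 without 1 library) and 2 for the difference (15 without the filter, 0 with limma, 14 with the replicate block, 16 with covariates, 0 with time as a factor, 0 to 16 without 1 library). The series difference passed for 3 members, for 1 with limma and 1 with covariates (Mondo in both), and for 0 to 3 without 1 library; with DESeq2 size factors or without ribosomal and mitochondrial rows Mondo was lost (adjusted p = 0.0683 and 0.0661). Over all genes it passed for 953, for 540 with covariates and for 720 to 1679 without 1 library. Its sign changed, uncalled, with covariates for sug (-0.27), cbt (-0.11), Amy-p (-0.48) and Amy-d (-0.74), with limma for sug (-0.10), and without 1 library for sug (-0.0395 to 0.14), Amy-d (-0.0295 to 0.90) and fbp (-0.12 to 0.0421). The cause of these changes was not tested. Depth limits Amy-p most, at 0.208 CPM in its lowest library.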
